A study of Mus musculus with 12 samples.

Results

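The genes that build, modify and break down sphingolipids were described in purified tumor cells of MC38 grafts, with RAC1 either WT or A159V, from mice given IgG or anti-PD1. MC38 is a mouse colon cancer line, and A159V is an activating substitution in the small GTPase RAC1 that was knocked into the endogenous gene by CRISPR-Cas9. The 40 genes were chosen by symbol, as enzymes and regulators of 4 steps of the pathway, from the 33217 Ensembl genes of the count table, and all 40 were found there. Ceramide synthesis had 15 of them, glycosylation 8, sphingomyelin metabolism 6 and breakdown 11. For the bulk RNA-seq, WT or A159V cells were injected under the skin of C57BL/6 mice of 6 to 8 weeks, and 100 μg of anti-PD1 or of the IgG isotype control was given every 3 days from day 3. Tumor cells were taken on day 13. Each genotype had 3 mice on IgG and 3 on anti-PD1, which makes 4 groups. The A159V cells are, unless the study specifies otherwise, 1 clone (clone 9) of the 3 obtained, so that the mutation and other properties of that clone cannot be told apart.

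Sphingolipids start with serine palmitoyltransferase, which joins serine to palmitoyl-CoA, and the product is reduced, joined to a fatty acid by ceramide synthases and desaturated to ceramide. Ceramide is then glucosylated, extended with galactose and capped with sialic acid to give gangliosides, or receives a phosphocholine headgroup to become sphingomyelin. Breakdown runs through lysosomal hydrolases, sphingomyelinases and ceramidases to sphingosine, which kinases turn into the signaling lipid sphingosine-1-phosphate. Ceramide is widely known for growth arrest and apoptosis, sphingosine-1-phosphate for growth and migration, and surface gangliosides are common antigens of tumor cells.

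Of the 40 genes, 35 had enough counts to be tested among the 14340 genes of the fit. The other 5 had at most 6 counts in a library. Sptlc3, an alternative catalytic subunit of serine palmitoyltransferase, had 0 counts in all 12 libraries, which allows up to 0.137 to 0.213 CPM at 3 counts per library. St8sia1, the GD3 synthase that opens the b-series of gangliosides, had 1 count in WT anti-PD1 and 1 in A159V IgG. The ceramide synthase Cers1, the desaturase and hydroxylase Degs2 and the alkaline ceramidase Acer2 were likewise at or near this limit, which covers counting error only. Total counts per library ranged from 14053582 to 21949942. Levels are CPM, the counts scaled to a common library size with TMM factors. Differences are log2 fold changes from edgeR's quasi-likelihood test, with p-values adjusted by the Benjamini-Hochberg method over all 14340 genes. A gene was called higher or lower where the adjusted p was under 0.05 and the log2 fold change was beyond 0.3 in either direction. The labels give no litter or batch, and the p-values measure only the spread between these samples. Rac1, the edited gene, had a mean level of 451 ± 55.5 CPM (SD, n = 3) in the WT IgG group and of 420 ± 65.1 CPM in the A159V IgG group, and a gene count cannot show the edit.

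Some properties of the libraries bear on every value below. Replicates correlated at r = 0.964 to 0.985 in WT IgG and 0.972 to 0.992 in A159V IgG, against 0.988 to 0.990 in both anti-PD1 groups, and the low values belonged to WT IgG replicate 1 and A159V IgG replicate 5. WT IgG replicate 1 was the lowest of the 12 libraries in 11 of the 35 genes (24.3% of all genes tested) and A159V IgG replicate 5 in 10 (17.9%). WT IgG replicate 1 was also the highest in 3 of the 35 (21.4% of all genes) and A159V IgG replicate 5 in 8 (14.2%). Summed over 12 leukocyte markers, of which 8 passed the filter, the level was 32.6 to 37.4 CPM in WT IgG, 49.4 to 75.3 in WT anti-PD1, 45.9 to 63 in A159V IgG and 47.3 to 52.7 in A159V anti-PD1. Cd68, a macrophage marker, made up most of this sum. Adgre1, Csf1r and C1qa, also macrophage markers of the list, were at most 0.134, 0.452 and 0.466 CPM in any library. Lyz2, a myeloid marker, was at 3.61 to 7.28 CPM. Whether the sum follows the number of macrophages was not tested. Ptprc, which encodes the pan-leukocyte antigen CD45, was at 0.184 to 2.81 CPM in WT IgG and 7.46 to 14.2 CPM in WT anti-PD1, and at 0 to 0.278 CPM in the 6 A159V libraries. The T cell marker Cd3e was at 0.445 to 1.61 CPM in WT anti-PD1 and at most 0.109 CPM elsewhere, with 0 counts in all A159V anti-PD1 libraries. Of 6 fibroblast markers, the summed level was 237 to 602 CPM in WT and 137 to 230 CPM in A159V libraries. It was mostly Dcn, at 161 to 403 and 56.2 to 117 CPM, while Pdgfra was at 26.3, 42.5 and 69 CPM in WT IgG and 63.6, 85 and 62.9 CPM in A159V IgG, and 2 of the 6 had a log2 fold change above 0 under IgG. Of 4 endothelial markers the sum was 4.89 to 14.6 CPM over all libraries. Epithelial markers, which adenocarcinoma cells often carry, were nearly absent, with a sum over 6 genes of 1.05 to 6.32 CPM and Epcam at most 0.109 CPM. In such bulk samples fewer cells of a type and less RNA per cell cannot be told apart. The part of other cells in the results below was not tested beyond the covariate fit given with them.

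Sptlc2, B4galt5, St3gal1 and St3gal5 were called higher in A159V under both treatments, and the promoters of 3 of them are shown for that reason. RefSeq windows on GRCm38.p6, from 250 bases before to 50 bases after the start, were used for 34 of the 40 genes, and those of Sptlc2, B4galt5 and St3gal5 are printed 5′ to 3′ along the gene's strand. Capitals mark GC boxes (GGGCGG, or CCGCCC on the other strand) and CCAAT boxes (CCAAT, or ATTGG on the other strand). Sptlc2 lies on the minus strand at chr12:87388306-87388605, B4galt5 on the minus strand at chr2:167349129-167349428 and St3gal5 on the plus strand at chr6:72097358-72097657.
Sptlc2: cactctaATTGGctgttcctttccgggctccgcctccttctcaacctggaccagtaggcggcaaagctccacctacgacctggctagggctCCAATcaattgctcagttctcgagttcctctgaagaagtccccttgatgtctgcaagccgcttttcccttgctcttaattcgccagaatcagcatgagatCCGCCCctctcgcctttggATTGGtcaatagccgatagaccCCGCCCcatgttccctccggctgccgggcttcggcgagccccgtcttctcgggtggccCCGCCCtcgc
B4galt5: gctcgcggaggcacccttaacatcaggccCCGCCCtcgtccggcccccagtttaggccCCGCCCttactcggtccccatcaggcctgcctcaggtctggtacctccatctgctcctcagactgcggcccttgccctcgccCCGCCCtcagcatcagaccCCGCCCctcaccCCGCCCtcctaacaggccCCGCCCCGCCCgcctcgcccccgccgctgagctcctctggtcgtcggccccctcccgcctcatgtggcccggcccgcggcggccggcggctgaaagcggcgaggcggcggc
St3gal5: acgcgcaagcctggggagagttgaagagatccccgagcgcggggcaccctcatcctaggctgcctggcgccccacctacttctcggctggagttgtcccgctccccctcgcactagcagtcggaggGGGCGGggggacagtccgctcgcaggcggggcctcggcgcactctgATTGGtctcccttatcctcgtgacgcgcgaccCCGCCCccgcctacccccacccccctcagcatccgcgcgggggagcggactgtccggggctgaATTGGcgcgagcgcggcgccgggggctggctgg
The Sptlc2 window held 3 GC boxes and 3 CCAAT boxes, B4galt5 held 7 GC boxes, the last pair overlapping, and no CCAAT box, and St3gal5 held 2 of each. A GC box was found in 25 of the 34 windows (73.5%), against 35.7% of all 32851 windows of the table, and a CCAAT box in 14 (41.2%), against 37.4%. The members' windows were not matched for base composition, and a match is a stretch of letters, not a bound site.

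Levels between genes were compared per kilobase of annotated exon. In WT IgG, the most abundant were the dihydroceramide desaturase Degs1 at 76.9 ± 6 CPM per kb (SD, n = 3), the ceramide synthase Cers2 at 61.8 ± 4.81, the acid ceramidase Asah1 at 52.6 ± 5.03 and the hexosaminidase subunit Hexa at 47.4 ± 6.19. Asah1 and Hexa differed by less than their spread. Their order depends on the length used, since per kilobase of the longest transcript Cers2 stood at 102.5 and Degs1 at 97.2, Asah1 at 64.2 and Hexa at 47.4 CPM per kb. Among the glycosyltransferases, B4galt5 at 23 ± 5.22 CPM per kb of exon and B4galnt1, the GM2 synthase, at 18.9 ± 2.91 differed by less than the SD of B4galt5, and per kilobase of the longest transcript their order turned, at 23.5 and 27.3. St3gal1 was lowest of the 7 with a test at 1.55 ± 0.313. The sphingomyelin genes were all below 6 CPM per kb in WT IgG, with the neutral sphingomyelinase Smpd4 at 5.78 ± 0.537 and Smpd3 at 0.113 ± 0.025, and the breakdown genes ran down to Sphk1 at 0.56 ± 0.121.

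**Figure D1:**
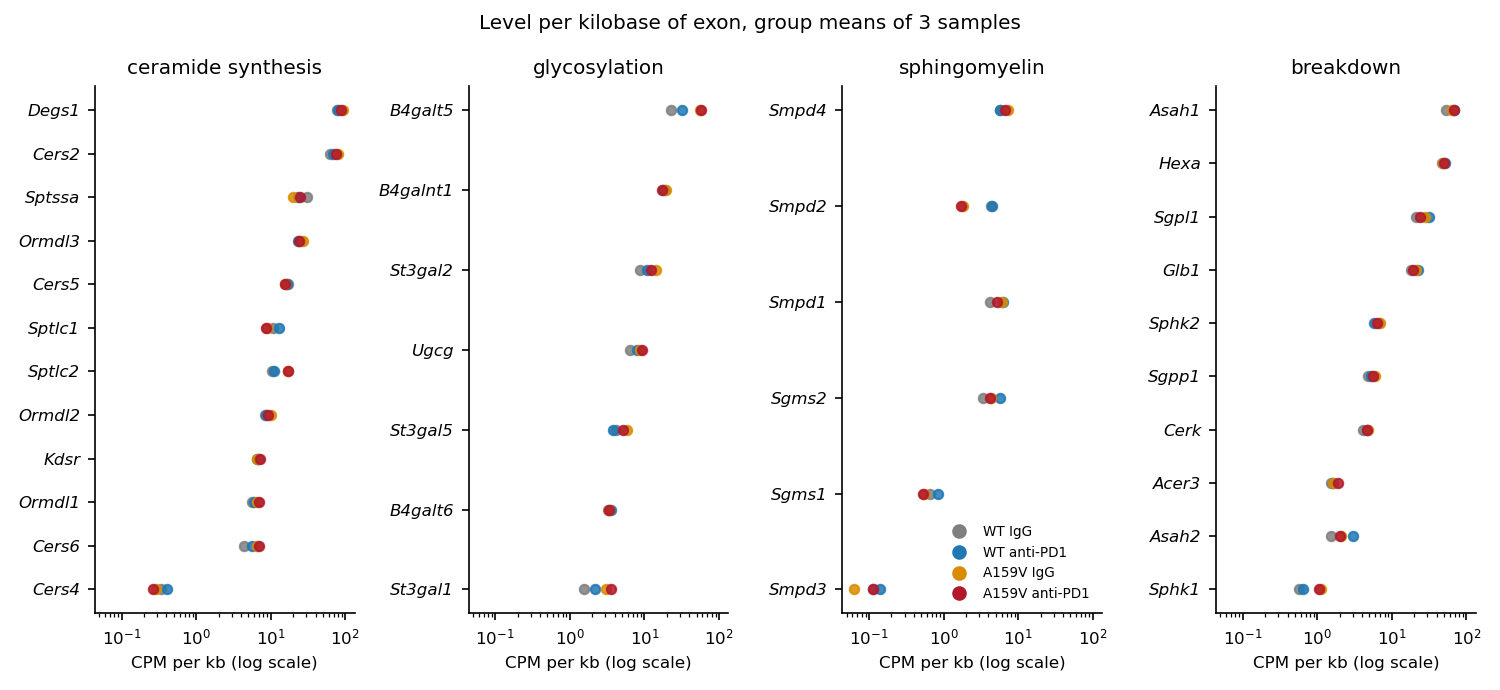
Level per kilobase of exon of the 35 tested genes, by step of the pathway, on a log axis; each point is the mean of 3 samples of a group. B4galt5 and Sptlc2 are at 55 and 17 CPM per kb in A159V IgG, apart from both WT groups, while most other genes have their 4 points together.

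The comparison of A159V IgG with WT IgG describes how cells isolated from A159V and WT tumors differed without checkpoint blockade. Under IgG, 9 of the 35 genes were higher in A159V and 1 was lower. Those higher were Sptlc2, Cers2 and Cers6 of ceramide synthesis, B4galt5, St3gal1, St3gal2 and St3gal5 of glycosylation, the lysosomal sphingomyelinase Smpd1 and the sphingosine kinase Sphk1, and the neutral sphingomyelinase Smpd2 was lower. The 10 calls are 28.6% of the genes tested here, close to the 28% called among all genes. By direction, 25.7% were higher, against 15.6% of all genes, and 2.86% were lower, against 12.4%. Of those higher, Sptlc2, B4galt5, St3gal1 and St3gal2 are enzymes that the study picked for RT-qPCR with these samples at hand. The shares by direction and the median of the 35 are therefore not independent evidence of a rise in the pathway. The median log2 fold change of the 35 was 0.25, with 28 above 0, against 0.02 over all genes. By upper-quartile scaling these medians were 0.11 and −0.12, the largest move of the median of all genes by a scaling. Over all genes the split of calls was 2231 higher and 1779 lower by TMM, 1680 and 2052 by RLE size factors, and 1337 and 2313 by upper-quartile scaling, so that changes are best read relative to the median. Of the 35 genes, 8 were higher and 1 lower by RLE and 5 and 1 by upper-quartile scaling. The 3 A159V IgG values did not overlap the 3 WT IgG values in 14 of the 35 genes (40%), against 35.8% of all genes.

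Under anti-PD1, the comparison of the genotypes gave 4 genes higher in A159V, Sptlc2, B4galt5, St3gal1 and St3gal5, and 3 lower, Sptlc1, the sphingomyelin synthase Sgms1 and Smpd2. These 7 are 20% of the genes tested, against 21.4% of all genes, with 11.4% higher against 11.2% and 8.57% lower against 10.2%. The median log2 fold change was 0.05, against 0.06 over all genes. The groups did not overlap in 17 genes (48.6%), against 56.1% of all genes. Both genotype comparisons use different mice. They shared 5 calls, all in the same direction, namely Sptlc2, B4galt5, St3gal1, St3gal5 and Smpd2. These are 50% of the IgG list and 71.4% of the anti-PD1 list, and over all genes the shared calls were 40.9% and 53.4% of the lists. Averaged over both treatments, 10 genes were called, 7 higher and 3 lower, and over all genes 35.9% were called, 19.1% higher and 16.8% lower.

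**Figure D2:**
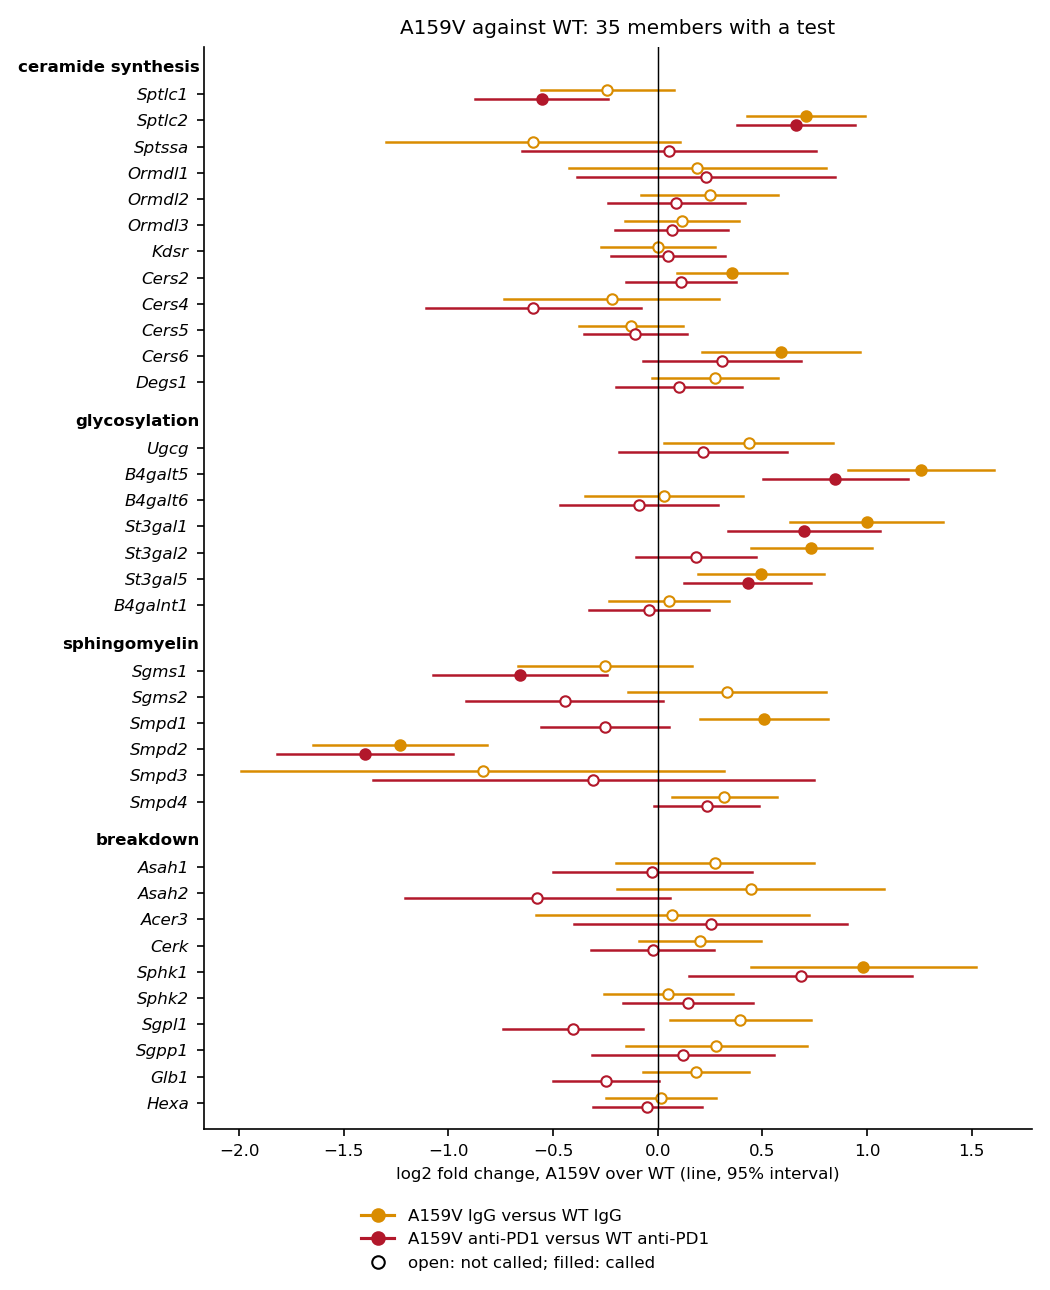
Log2 fold change of A159V over WT under IgG (orange) and under anti-PD1 (red) for the 35 tested genes, by step; lines are 95% intervals from edgeR, and filled points are called. B4galt5 (1.26 and 0.85) and Smpd2 (−1.23 and −1.40) lie farthest from 0 with intervals that leave out 0 under both treatments.

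At the entry of the pathway, Sptlc2 rose in A159V and its partner Sptlc1 did not. Sptlc2, a catalytic subunit of serine palmitoyltransferase (ENSMUSG00000021036, mm10 chromosome 12, 87305058 to 87388355), was at 89.6, 91.2 and 71.6 CPM in the 3 WT IgG libraries, 94.2, 87.5 and 85.0 in WT anti-PD1, 147, 146 and 120 in A159V IgG, and 149, 132 and 141 in A159V anti-PD1. All 6 A159V values lie above all 6 WT values. The log2 fold change was 0.71 (SE 0.13, edgeR adjusted p = 0.00223) under IgG and 0.66 (SE 0.13, edgeR adjusted p = 0.00381) under anti-PD1. Sptlc1, the subunit shared by all forms of the enzyme, was at 34.1, 44.9 and 35.2 CPM in WT IgG, 45.1, 49.4 and 43.1 in WT anti-PD1, 34.2, 35.1 and 27.4 in A159V IgG, and 31.9, 28.1 and 33.7 in A159V anti-PD1. It overlapped between the genotypes under IgG (log2 fold change −0.24, SE 0.15, edgeR adjusted p = 0.241) and was lower in A159V without overlap under anti-PD1 (−0.55, SE 0.15, edgeR adjusted p = 0.0184). Per kilobase, the ratio of Sptlc2 to Sptlc1 was 0.977 ± 0.151 (SD, n = 3) in WT IgG and 0.851 ± 0.0699 in WT anti-PD1, while A159V had 1.87 ± 0.0487 under IgG and 1.98 ± 0.127 under anti-PD1. The ratio in the A159V libraries, 1.82 to 2.05, did not overlap that in the WT libraries, 0.776 to 1.15. 

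The regulators of serine palmitoyltransferase were not called in either comparison. The activating small subunit Sptssa had a mean of 46.1 ± 7.21 CPM in WT IgG and 30.5 ± 16.5 in the A159V IgG group, where replicate 5 stood alone at 11.7 CPM. The inhibitors Ormdl1, Ormdl2 and Ormdl3 had log2 fold changes of 0.19, 0.25 and 0.12 under IgG and 0.23, 0.09 and 0.07 under anti-PD1. Ormdl1 was at 39.9, 38.0 and 13.8 CPM in A159V IgG, replicate 5 again being low. The reductase Kdsr had log2 fold changes of 0.00 and 0.05, with 95% intervals from −0.27 to 0.27 and from −0.22 to 0.32.

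Ceramide synthases differ in the length of the fatty acid they attach. Cers6, which prefers C16 chains, was at 29.8, 43.8 and 43.7 CPM in WT IgG and 64.0, 64.7 and 47.8 in A159V IgG. These groups do not overlap, and the log2 fold change was 0.59 (SE 0.18, edgeR adjusted p = 0.0252). Under anti-PD1 it was at 56.4, 49.9 and 42.9 CPM in WT and 65.4, 57.2 and 62.1 in A159V, a log2 fold change of 0.31 (SE 0.17, edgeR adjusted p = 0.226). Cers2, the main synthase for very long chains, was at 215, 220 and 247 CPM in WT IgG and 295, 300 and 277 in A159V IgG, again without overlap. Its log2 fold change of 0.36 (SE 0.12, edgeR adjusted p = 0.0441) was near the threshold, and 20 of 24 alternative settings lost the call, with adjusted p from 0.0225 to 0.299. Under anti-PD1 the Cers2 groups overlapped, at 271, 256 and 229 CPM in WT and 247, 294 and 276 in A159V (0.11, SE 0.12, edgeR adjusted p = 0.55). Cers2 held 72.8% to 79.4% of the summed ceramide synthase level per kilobase in every library. Cers5 held 20.5% ± 1.81 in WT IgG and 15.4% ± 0.187 in A159V IgG, although its own log2 fold change was −0.13 (SE 0.11, edgeR adjusted p = 0.422). Cers4 held under 1%. Degs1, which makes the final double bond, was at 209, 181 and 207 CPM in WT IgG and 260, 271 and 191 in A159V IgG, which overlap (0.27, SE 0.14, edgeR adjusted p = 0.156).

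In glycosylation, 4 of 7 genes were higher under IgG (57.1%, against 15.6% of all genes) and 3 of 7 under anti-PD1 (42.9%, against 11.2%). The median log2 fold change under IgG was 0.49, and 5 of the 7 genes were above 0 in all 24 alternative settings, while B4galt6 and B4galnt1, near 0, changed sign in 9 and 10 of them. St3gal1, St3gal2 and B4galt5, with Ugcg and Sptlc2, are the enzymes that the study itself picked for RT-qPCR with these samples at hand, so that their direction here is not independent evidence. Ugcg, the glucosyltransferase that commits ceramide to this branch, was at 35.1, 31.5 and 33.9 CPM in WT IgG and 54.1, 50.7 and 31.0 in A159V IgG. Replicate 5 of A159V IgG lies below all WT values and the other two lie above them. The log2 fold change was 0.44 (SE 0.19, edgeR adjusted p = 0.0989) with all libraries, and without A159V IgG replicate 5 it was 0.57 (edgeR adjusted p = 0.00724). With any other library left out it was 0.29 to 0.45 and not called, with edgeR adjusted p from 0.109 to 0.318. Under anti-PD1, Ugcg was at 45.7, 42.6 and 35.7 CPM in WT and 51.5, 42.8 and 50.1 in A159V (0.22, SE 0.19, edgeR adjusted p = 0.43).

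B4galt5, the main lactosylceramide synthase (ENSMUSG00000017929, chromosome 2, 167298444 to 167349183), had the largest rise of the 35 genes. It was at 78.0, 96.2 and 123 CPM in WT IgG, 134, 128 and 155 in WT anti-PD1, 245, 216 and 250 in A159V IgG, and 264, 227 and 261 in A159V anti-PD1. Every A159V library was above every WT library, and the WT anti-PD1 values were above the WT IgG values. The log2 fold change was 1.26 (SE 0.16, edgeR adjusted p = 0.000262) under IgG, a 2.39-fold level, and 0.85 (SE 0.16, edgeR adjusted p = 0.0028) under anti-PD1. Its paralog B4galt6 had log2 fold changes of 0.03 and −0.09, with 95% intervals from −0.34 to 0.41 and from −0.47 to 0.29. B4galt5 held 87.4% ± 1.95 of the level per kilobase of the pair under IgG in WT and 94.3% ± 1.15 in A159V.

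Of the 4 sialyltransferases among the 40 genes, St3gal1, St3gal2 and St3gal5 were higher in A159V IgG, and St8sia1 had too few counts for a test. St3gal1, which sialylates terminal galactose of glycolipids and of O-glycans (chromosome 15, 67102875 to 67176830), was at 8.25, 11.1 and 12.4 CPM in WT IgG, 12.7, 15.8 and 16.1 in WT anti-PD1, 19.4, 23.0 and 21.3 in A159V IgG, and 26.0, 22.0 and 24.4 in A159V anti-PD1. The genotypes do not overlap, and the log2 fold change was 1.00 (SE 0.17, edgeR adjusted p = 0.00139) under IgG and 0.70 (SE 0.17, edgeR adjusted p = 0.0108) under anti-PD1. St3gal2, which makes GD1a and GT1b (chromosome 8, 110919922 to 110972480), was at 36.8, 44.5 and 48.8 CPM in WT IgG and 62.8, 74.5 and 79.2 in A159V IgG, without overlap, which gave a log2 change of 0.73 (SE 0.13, edgeR adjusted p = 0.00208). Under anti-PD1 it was at 55.2, 55.9 and 51.4 CPM in WT and 64.0, 58.8 and 61.9 in A159V, which do not overlap but lie close (0.18, SE 0.13, edgeR adjusted p = 0.347). St3gal5, the GM3 synthase (chromosome 6, 72097592 to 72154571), was at 12.6, 10.3 and 9.74 CPM in WT IgG, 9.42, 10.5 and 10.2 in WT anti-PD1, 15.6, 15.7 and 14.8 in A159V IgG, and 13.8, 13.6 and 13.2 in A159V anti-PD1. All A159V values exceed all WT values. The log2 fold change was 0.49 (SE 0.14, edgeR adjusted p = 0.0195) under IgG and 0.43 (SE 0.14, edgeR adjusted p = 0.0441) under anti-PD1, and the second call was lost in 16 of 24 alternative settings (adjusted p from 0.0187 to 1). B4galnt1, which adds the next sugar toward complex gangliosides, had log2 fold changes of 0.05 (95% interval −0.23 to 0.34) and −0.04 (−0.33 to 0.25).

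**Figure D3:**
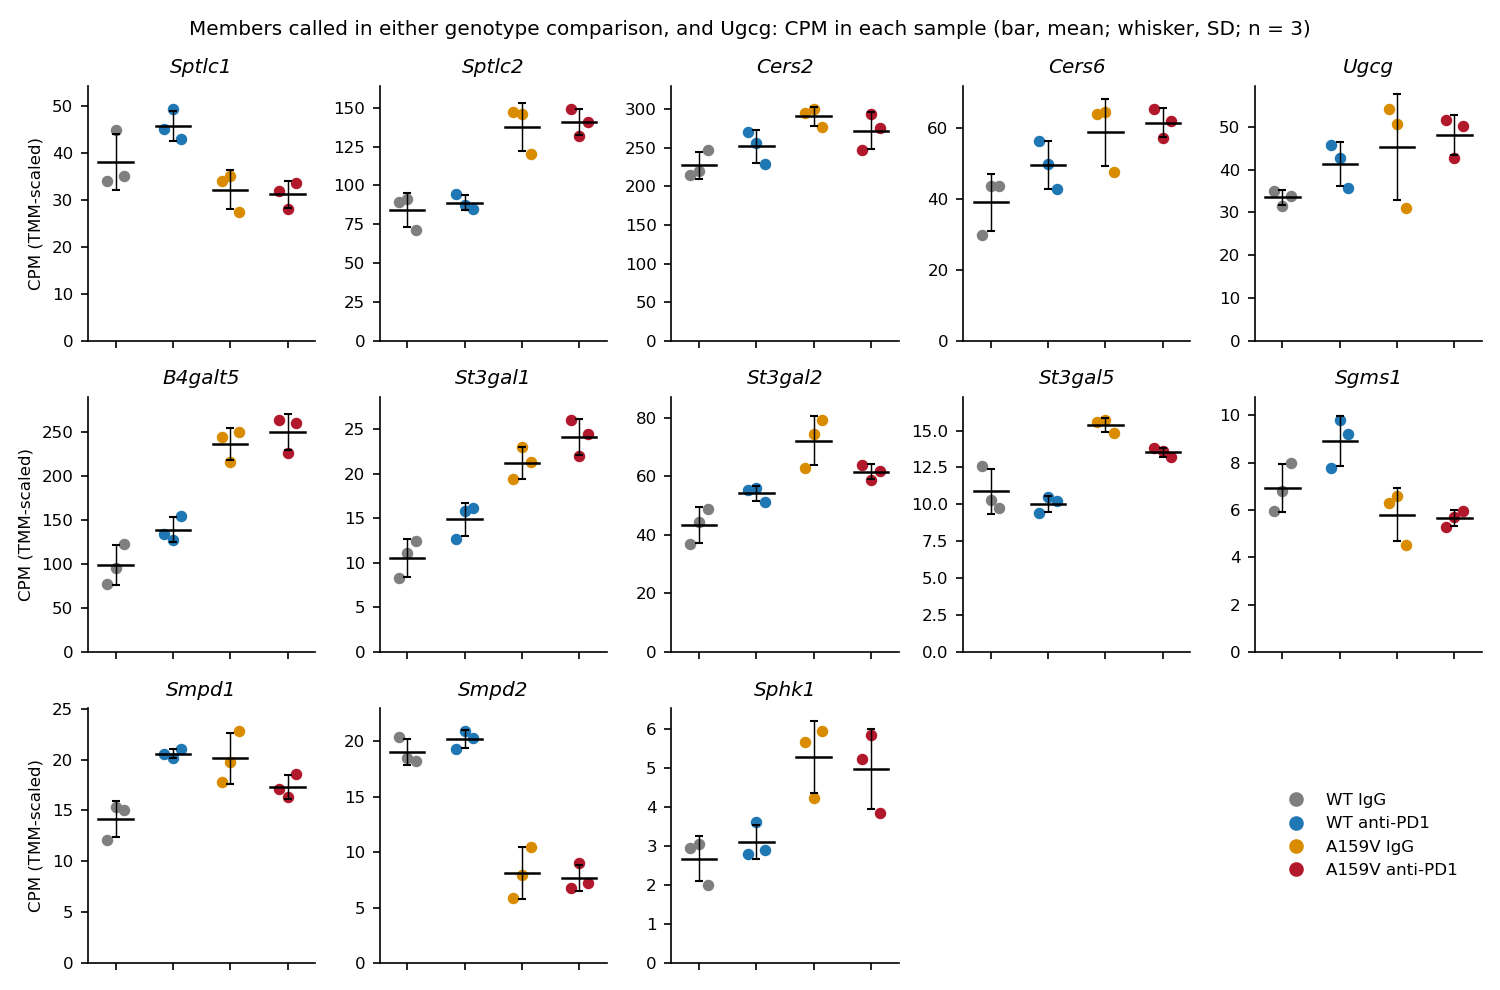
CPM in each library for the 12 genes called in either genotype comparison and for Ugcg, with the mean and SD of 3 libraries per group; each axis starts at 0. Sptlc2, B4galt5, St3gal1 and St3gal5 are higher and Smpd2 lower in all 6 A159V libraries than in all 6 WT libraries, and 1 orange point of Ugcg, replicate 5 at 31.0 CPM, falls below WT IgG.

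In sphingomyelin metabolism, Smpd2 fell in A159V under both treatments. Smpd2, a neutral sphingomyelinase (ENSMUSG00000019822, chromosome 10, 41485642 to 41490369), was at 20.4, 18.5 and 18.2 CPM in WT IgG, 19.3, 20.9 and 20.3 in WT anti-PD1, 5.87, 7.97 and 10.5 in A159V IgG, and 6.76, 8.98 and 7.18 in A159V anti-PD1. The highest A159V library was far below the lowest WT library. The log2 fold change was −1.23 (SE 0.19, edgeR adjusted p = 0.000894) under IgG and −1.40 (SE 0.19, edgeR adjusted p = 0.000428) under anti-PD1. Smpd2 shares 905 exon bases with Mical1 on the other strand, whose log2 fold change was −0.48 (edgeR adjusted p = 0.0819) under IgG and −1.11 (edgeR adjusted p = 0.0019) under anti-PD1, and the strand setting of the counting is not given in the sources used here, so reads of this pair may not be told apart. The same holds for Ormdl2, which shares 1114 exon bases with Dnajc14, and for B4galnt1, which shares 715 with Slc26a10.

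Smpd1, the acid sphingomyelinase of the lysosome, was at 12.1, 15.3 and 15.0 CPM in WT IgG, 20.6, 20.2 and 21 in WT anti-PD1, 17.8, 19.8 and 22.8 in A159V IgG, and 17.1, 16.3 and 18.6 in A159V anti-PD1. The WT IgG group stands below the other groups. It was higher in A159V under IgG (log2 fold change 0.51, SE 0.14, edgeR adjusted p = 0.0192), while under anti-PD1 the difference was −0.25 (SE 0.14, edgeR adjusted p = 0.223). The first call was lost in 10 of 24 alternative settings (adjusted p from 0.0176 to 0.203), among them leaving out WT IgG replicate 1 (log2 fold change 0.35, edgeR adjusted p = 0.103), WT IgG replicate 2 (0.49, edgeR adjusted p = 0.0529) or A159V IgG replicate 5 (0.33, edgeR adjusted p = 0.0743). Sgms1, which makes sphingomyelin in the Golgi, was at 5.96, 6.79 and 7.98 CPM in WT IgG, 7.76, 9.79 and 9.19 in WT anti-PD1, 6.29, 6.58 and 4.52 in A159V IgG, and 5.28, 5.69 and 5.95 in A159V anti-PD1. It was lower in A159V under anti-PD1 (−0.66, SE 0.19, edgeR adjusted p = 0.0278), without overlap, and not called under IgG (−0.25, SE 0.19, edgeR adjusted p = 0.343). Sgms2, which held 83.8% ± 1.41 of the level per kilobase of the pair in WT IgG, had log2 fold changes of 0.33 and −0.44 and was not called. Of the summed sphingomyelinase level per kilobase, Smpd2 held 29.7% ± 3.28 in WT IgG and 11.9% ± 2.07 in A159V IgG, and Smpd4 held 40.1% ± 2.02 and 47.8% ± 2.39.

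**Figure D4:**
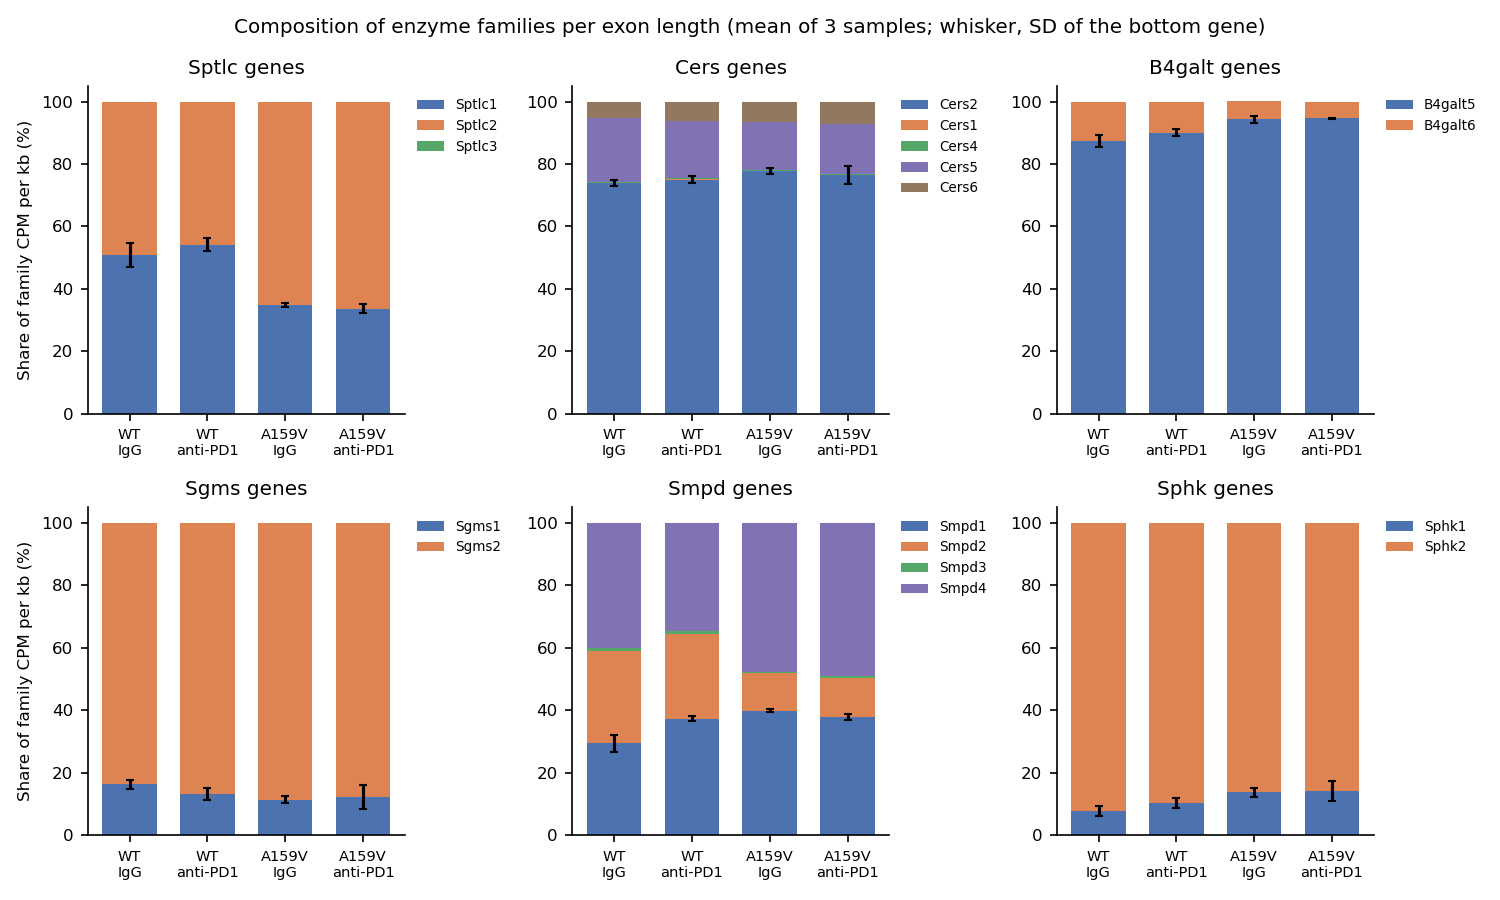
Share of each gene in the summed CPM per kb of its enzyme family in the 4 groups, as the mean of 3 samples, with the SD of the bottom gene as whiskers. The Sptlc1 share is 50.8% and 54.1% in the WT groups and 34.8% and 33.6% in the A159V groups, and the Smpd2 share is 11.9% and 12.5% in A159V.

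Breakdown had 1 call of 10 genes under IgG (10%, against 28% of all genes) and none by edgeR under anti-PD1 (against 21.4%), where 2 of the 10 had an unadjusted p under 0.05 (20%, against 35.8% of all genes). Sphk1, the inducible sphingosine kinase (chromosome 11, 116530925 to 116536674), was at 2.95, 3.06 and 2.01 CPM in WT IgG, 2.80, 3.62 and 2.90 in WT anti-PD1, 5.66, 4.23 and 5.95 in A159V IgG, and 5.23, 5.85 and 3.84 in A159V anti-PD1. All A159V values lie above all WT values. The log2 fold change was 0.98 (SE 0.25, edgeR adjusted p = 0.0119) under IgG and 0.68 (SE 0.25, edgeR adjusted p = 0.0655) under anti-PD1. Sphk2, the other kinase, held 92.3% ± 1.67 of the level per kilobase of the pair in WT IgG and had log2 fold changes of 0.05 and 0.14. It shares 373 exon bases with the ribosomal protein gene Rpl18 and 539 with Dbp, both on the other strand, so its level may hold their reads. All 10 log2 fold changes of the step were above 0 under IgG, from 0.02 for Hexa to 0.98 for Sphk1, while 6 of 10 were below 0 under anti-PD1. The median of the step was 0.24 under IgG, against 0.02 over all genes, and −0.02 under anti-PD1, against 0.06. Under IgG, Hexa and Sphk2 each changed sign in 11 of 24 alternative settings and Acer3 in 9. The lysosomal ceramidase Asah1 was at 241, 280 and 125 CPM in A159V IgG against a mean of 178 ± 17 CPM (SD, n = 3) in WT IgG, so that replicate 5 lies below and the others above the WT values. The alkaline ceramidase Acer3 showed the same order, at 32.5, 31.5 and 10.3 CPM against 24.3, 23.7 and 22.7 CPM. Sgpl1, the lyase that irreversibly cleaves sphingosine-1-phosphate, had a log2 fold change of 0.40 (SE 0.16, edgeR adjusted p = 0.0754) under IgG and −0.40 (SE 0.16, edgeR adjusted p = 0.0805) under anti-PD1.

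The counts of calls depended on the libraries in the IgG groups. The counts over all genes moved with them. Under IgG, 14 of the 35 genes and 4717 of all genes were called without A159V IgG replicate 5, and 6 and 2925 without WT IgG replicate 2. Under anti-PD1, 4 and 1983 were called without WT anti-PD1 replicate 2, and 4 and 2171 without A159V anti-PD1 replicate 2. With both IgG libraries of low replicate correlation left out, an alternative chosen after seeing the data, 14 were called under IgG, 13 higher and 1 lower, and 13 under anti-PD1, 4 higher and 9 lower, with 5363 and 5532 of all genes. With the mean log2 level of the leukocyte markers as a covariate, 5 were called under IgG, with 1715 of all genes, and 0 under anti-PD1. Under IgG this score was −0.66 to 0.16 in WT and −0.70 to −0.41 in A159V, whereas the summed CPM of the markers, mostly Cd68, was higher in A159V. Under anti-PD1 this score was 1.04 to 1.40 in WT and −0.66 to −0.50 in A159V, and 3 of all 14340 genes were called. The covariate and the genotype cannot be told apart there. B4galt5, St3gal1 and Smpd2 were called under IgG in all 24 alternative settings, and Sptlc2 and St3gal2 in 23, the exception being the fit of the IgG groups alone (edgeR adjusted p = 0.0539 and 0.0543). Cers6 lost its IgG call without WT IgG replicate 1 or 2 or A159V IgG replicate 1 or 2, with edgeR adjusted p of at most 0.142 over all settings, and St3gal5 lost it without WT IgG replicate 2 or A159V IgG replicate 1 or 2, with at most 0.223. Under anti-PD1, Sptlc1 lost its call without WT anti-PD1 replicate 2 or A159V anti-PD1 replicate 1 or 2, and Sgms1 without any of 5 of the 6 anti-PD1 libraries, WT anti-PD1 replicate 1 excepted. Sgpl1, not called under anti-PD1 with all libraries, was called lower in 10 of 24 settings, among them RLE and upper-quartile scaling and DESeq2.

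Anti-PD1 against IgG was compared within each genotype, to ask whether the pathway responds to checkpoint blockade. In WT, none of the 35 genes was called, against 0.628% of all genes, and 8 had an unadjusted p under 0.05 (22.9%, against 27.5% of all genes). All 8 were higher with anti-PD1, but the split by direction over all genes at this p is not given here. DESeq2 called 5 of the 35 and 1441 of all genes. Asah2, the neutral ceramidase, was at 9.07, 22.5 and 21 CPM in WT IgG and 32.7, 35.1 and 37.5 in WT anti-PD1 (log2 fold change 1.00, SE 0.30, edgeR adjusted p = 0.0844). Sgms2, which makes sphingomyelin at the plasma membrane, was at 16.7, 23.4 and 23.7 CPM in WT IgG and 37.7, 35.9 and 31.7 in WT anti-PD1 (0.72, SE 0.22, edgeR adjusted p = 0.0873). In both genes the groups do not overlap, and WT IgG replicate 1 is the lowest library. Sgpl1 (0.60), Smpd1 (0.54), B4galt5 (0.49), St3gal1 (0.48), St3gal2 (0.32) and Glb1 (0.30), the lysosomal galactosidase that acts on GM1, had edgeR adjusted p from 0.0725 to 0.149. Without WT IgG replicate 4, 7 of the 35 and 3458 of all genes were called, and without A159V IgG replicate 5, 3 and 601. Over the same libraries the leukocyte marker sum was 32.6 to 37.4 CPM in WT IgG and 49.4 to 75.3 CPM in WT anti-PD1. With the leukocyte score as a covariate 0 of the 35 and 1 of all genes were called. This score was −0.66 to 0.16 in WT IgG and 1.04 to 1.40 in WT anti-PD1, so score and treatment cannot be told apart. The fit without it had also called 0 of the 35.

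In A159V, anti-PD1 gave no call among the 35 genes or among all genes (0%), and none of the 35 had an unadjusted p under 0.05, against 3.63% of all genes. DESeq2 called 0 of the 35 and 2 of all genes. The log2 fold changes ran from −0.23 for St3gal2 to 0.86 for Smpd3, which had 3 to 19 counts per A159V library. For B4galt5 the difference was 0.08 (95% interval −0.26 to 0.42), for St3gal1 0.18 (−0.17 to 0.54) and for Smpd1 −0.22 (−0.52 to 0.09). The difference between the genotypes in their response was tested as an interaction. None of the 35 passed, against 0.00697% of all genes, and 6 had an unadjusted p under 0.05 (17.1%, against 17.6% of all genes), St3gal2, Sgms2, Smpd1, Asah2, Sgpl1 and Glb1. All 6 were negative, meaning a smaller or more negative response in A159V. The split by sign over all genes at this p is not given here, so the direction is not a result about the 35 alone. The smallest p belonged to Smpd1 (−0.76, SE 0.20, edgeR adjusted p = 0.173) and Sgpl1 (−0.80, SE 0.22, edgeR adjusted p = 0.176). DESeq2 called 2 of the 35 and 294 of all genes. By edgeR no difference in response between the genotypes was thus shown for any of the 35, and this test uses the samples of both treatment comparisons.

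**Figure D5:**
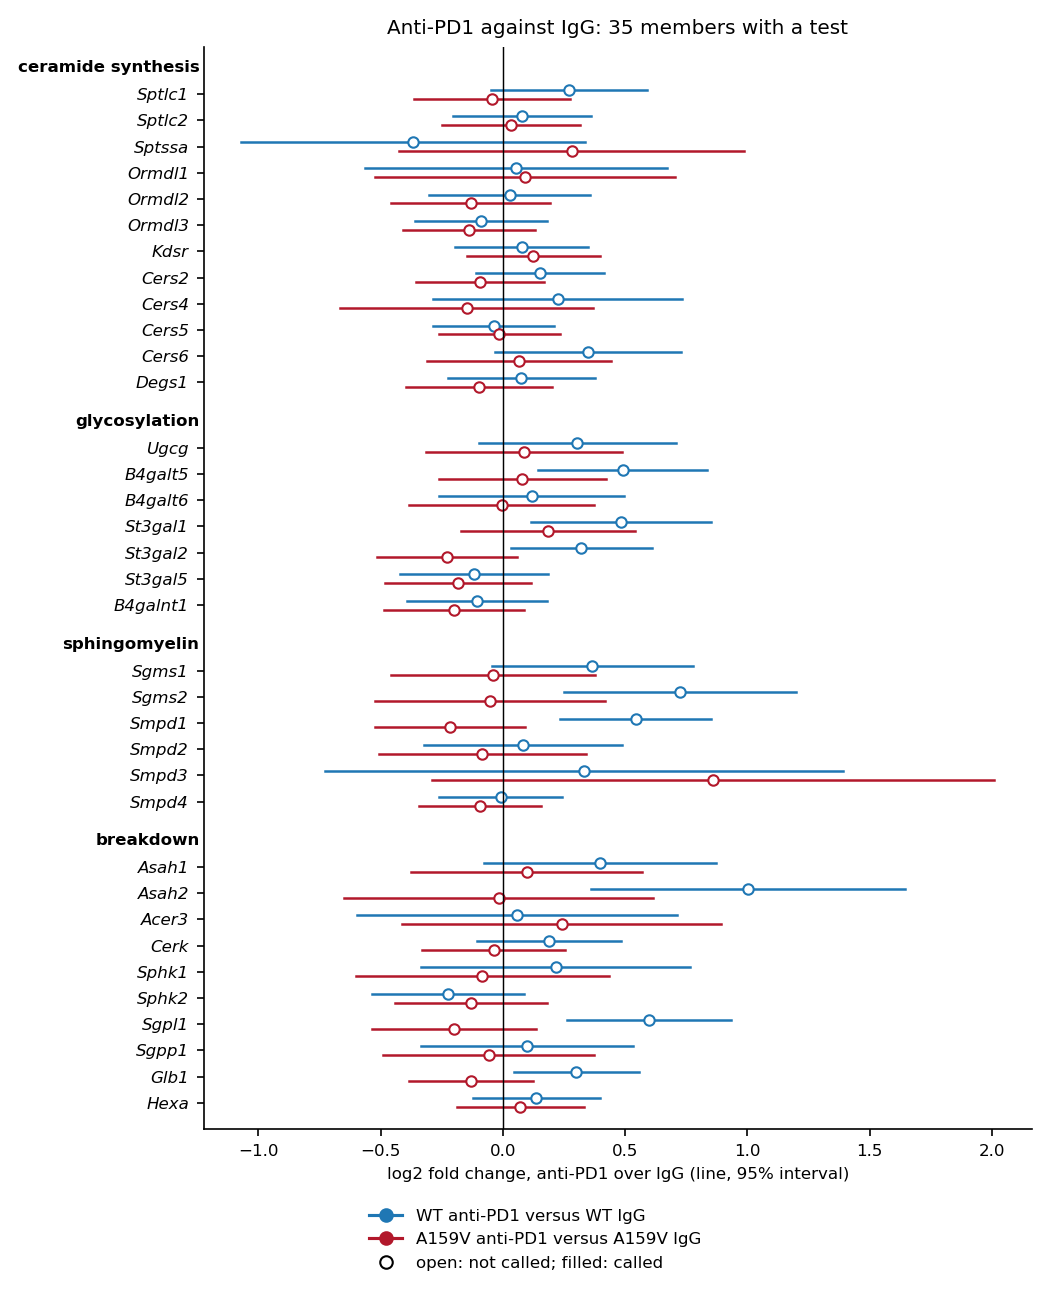
Log2 fold change of anti-PD1 over IgG in WT (blue) and in A159V (red) for the 35 tested genes, with 95% intervals; open points are not called, and no point is filled. The largest WT values are Asah2 at 1.00 and Sgms2 at 0.72, where the A159V values are −0.02 and −0.05.

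Other sphingolipid genes were taken from a list of 69, of which 53 were tested. Under IgG, 19 were higher in A159V and 4 lower (43.4%, against the 28% of all genes), and under anti-PD1, 7 were higher and 5 lower (22.6%, against 21.4%). Under IgG the lysosomal genes had 10 higher and 1 lower of 18, synthesis and transport 4 and 0 of 12, glycosylation 2 and 1 of 12, and sphingosine-1-phosphate transport and signaling 3 and 2 of 11. By direction 35.8% of the 53 were higher, against 15.6% of all genes. Fads3, a desaturase of the sphingoid base, was at 50.7, 61.7 and 48.0 CPM in WT IgG and 117, 111 and 121 in A159V IgG (log2 fold change 1.12, SE 0.12, edgeR adjusted p = 0.000102). Cptp, a ceramide-1-phosphate transfer protein (0.75), Ctsa, the lysosomal protective protein (0.67), and Gltp, a glycolipid transfer protein (0.58), were also higher, with edgeR adjusted p from 0.00208 to 0.00363. Each of these 4 was higher under anti-PD1 too, by 0.50 to 0.76. Plpp1, a lipid phosphatase that acts on sphingosine-1-phosphate, was at 39.9, 32.7 and 37.3 CPM in WT IgG and 17.6, 18.1 and 13.7 in A159V IgG, and it was lower under both treatments (−1.16 and −1.36, edgeR adjusted p = 0.000242 and 9.59e-05). The sulfatase Arsa was lower under both as well (−0.76 and −0.58, edgeR adjusted p = 0.012 and 0.0483), and St3gal3, a sialyltransferase of glycoproteins and glycolipids, was lower under IgG (−0.55, edgeR adjusted p = 0.0277). The sphingosine-1-phosphate receptor S1pr3 had 13, 3 and 13 counts in WT IgG and 0 in each A159V IgG library. It passed the filter and is among the 53 tested, but at counts this low its fold change is imprecise and is not printed.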

How the data were processed

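Gene expression was measured by bulk RNA-seq with paired reads of 100 bp in 12 samples of isolated tumor cells. The authors aligned reads to mm10 with STAR, converted files with Samtools and deposited raw counts per gene from summarizeOverlaps, with no replicates pooled, and tested them with DESeq2. Versions, the counting mode and the strand setting are not given in the sources used here. Symbols, positions and exon lengths came from GENCODE M21. All genes were fitted with edgeR 4.0.16 in R 4.3.3 (glmQLFit and glmQLFTest, TMM scaling, filterByExpr), as 4 groups of 3 samples with 8 residual degrees of freedom, with Benjamini-Hochberg adjustment over 14340 genes. SEs are the log2 fold change over the square root of F. Total counts of 14053582 to 21949942 put 3 counts at 0.137 to 0.213 CPM. DESeq2 1.42.0 and voom in limma 3.58.1, other scalings, filters, thresholds, covariates and left-out libraries were alternatives. The scripts were tested on simulated data, with far fewer genes changed than were called here. For A159V IgG versus WT IgG, edgeR recovered 1% of log2 changes of 0.5, 48% of 1 and 88% of 2. DESeq2 recovered 7.5%, 64% and 89%. Unchanged genes made up 0%, 5.88% and 2.22% of the edgeR calls and 42.3%, 16.3% and 11.4% of the DESeq2 calls. A small change that edgeR did not call is thus not shown to be absent. Values in every sample are given for genes called in a genotype comparison, and for those the study measured by RT-qPCR, and of the other sphingolipid genes up to 4 per direction with the smallest p under IgG are named. Asah2, Asah1, Acer3, Sgms2, Ormdl1 and Degs1 are further examples chosen after their values were seen. The members and lists were chosen with earlier results of these data known.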

Additional observations from a re-analysis of the deposited data

How the results depend on the processing

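Of the 35 genes, 10 were called under IgG, with 4010 of all genes. Upper-quartile scaling gave 6, with 1337 higher and 2313 lower over all genes. The leukocyte score as a covariate gave 5, with 1715 of all genes, and leaving out a library 6 to 14, with 2578 to 4717. A minimum of 10 counts in every sample gave 6, the fit of the IgG groups alone 3 and an adjusted p under 0.01 gave 5. Where no count over all genes is given, here and below, the number is not a result about the 35 alone. Under anti-PD1 there were 7, with 3075 of all genes. There were 0 with the leukocyte score (3 of all genes) and 13 without WT IgG replicate 1 and A159V IgG replicate 5 together (5532). With a library left out there were 4 to 10 (1519 to 4134). The fit of the anti-PD1 groups alone gave 12 and an adjusted p under 0.01 gave 3. Averaged over treatments there were 10 (5153 of all genes), with 0 under the leukocyte score (53) and 9 to 13 with a library left out (4343 to 5824). For anti-PD1 in WT there were 0 (90 of all genes), with 5 by DESeq2 (1441) and 1 without both of those IgG libraries (449). Leaving out a library gave 0 to 7, when 1 to 3458 of all genes were called. Without the filter on low counts there were 2. For the difference between the genotypes in response there were 0 (1 of all genes), with 2 by DESeq2 (294) and 1 without both IgG libraries (301). With a library left out there were 0 to 2 (0 to 1182). For anti-PD1 in A159V there were 0 under every alternative run. The cause of these differences was not tested. Replicate numbers did not pair the samples, since 13 pairs deviated together at r = −0.178 to 0.205 and 3 of 10 samples correlated best with their own number. With the replicate number as a block, 18 genes were called under IgG, 9 under anti-PD1, 15 averaged over treatments, 9 for anti-PD1 in WT, 0 in A159V and 5 for the difference in response. The numbers of WT IgG replicate 4 and A159V IgG replicate 5 occur in no other library, so the block fits these libraries out. Under IgG it thus rests on replicates 1 and 2 of each genotype and is not a paired comparison. Counts over all genes under the block are not given here, so its counts are not a result about the 35 alone. No gene called with all libraries changed direction under an alternative run. Among genes not called there, signs did change, Acer3 under IgG being called higher under the block and without A159V IgG replicate 5 but below 0 in 9 of 24 alternatives. Per gene and alternative, the status was the same in 4751 cases, while 108 calls were gained and 103 lost. The 4751 include genes called neither with all libraries nor under the alternative, so they are not a count of calls kept. With 3 mice per group, the spread between mice and the 14053582 to 21949942 counts per library limit the precision.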
